A study of Mus musculus with 7 samples.

Results

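Dermal fat lies beneath the hair follicles of mouse skin, and the 9 genes examined here are ones that its adipocytes use: *Adipoq*, *Lep*, *Cfd* and *Retn*, which encode secreted adipokines, *Plin1* and *Cidec*, which encode proteins of the lipid droplet, *Lpl* and *Fabp4*, which serve the uptake and transport of fatty acids, and *Pparg*, which encodes the nuclear receptor PPARγ. The genes were chosen by name and not by their values. All 9 were found among the 23122 gene symbols measured in every papilloma. RNA was sequenced from skin papillomas of 4 CTR and 3 TG mice of the C57Bl/6 strain, with 1 papilloma from each mouse. All the mice carried the *tetO-Nanog* allele, inserted downstream of *Col1a1*, were age-matched adults, and drank water with 2 mg/ml doxycycline during the whole chemical carcinogenesis protocol, where the mutagen DMBA initiates tumors and the phorbol ester TPA promotes them. Only TG mice also carried *K5-rtTA*, whose promoter is active in basal keratinocytes, so the transgene is driven in the epithelium and not in adipocytes. A papilloma is an epithelial outgrowth with its own stroma, and the RNA came from the whole tissue. Papillomas were taken when the protocol ended or, for some mice, earlier at a humane endpoint. The paper reports that many TG mice were sacrificed early because of large carcinomas. The time of collection of each papilloma is not given in the sources used here.

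Adipocytes store fatty acids as triglyceride in a lipid droplet, release them by lipolysis, and secrete hormones into the blood. PPARγ, working with C/EBP proteins, turns on the genes of this program when precursors in the dermis become fat cells. *Adipoq*, *Lep*, *Plin1* and *Cidec* are nearly private to fat cells, whereas *Fabp4*, *Lpl* and *Pparg* are also used elsewhere: *Fabp4* in macrophages and endothelium, *Lpl* in muscle and macrophages, and *Pparg* in sebaceous cells and differentiating keratinocytes. In bulk tissue, fewer cells of a type and less RNA per cell cannot be told apart.

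Levels are FPKM, which scales a gene's fragments to its transcript length and to library size, and can therefore be compared between genes. The files give no read numbers, so the reads behind a value were inferred from the width of its Cufflinks interval. These implied reads summed to between 9963680 and 15519772 in a papilloma. They cover counting error only, and between 70.0% and 72.0% of values under 50 implied reads lay within 0.1 of a whole number, so they are approximate. *Nanog* had between 36.9 and 66.9 FPKM in TG papillomas and between 2.70 and 12.7 FPKM in CTR papillomas, in the order the labels give. Its TG minus CTR difference was 3.45 ± 0.48 (SE) on the log2 scale, yet it did not pass the adjusted test (adjusted p = 0.400, limma). Failing that test therefore does not show that a gene is unchanged. TG 3 stood apart from the other 6 papillomas. Its median FPKM over all 23746 entries, before entries of a symbol were summed, was 1.04, against 0.481 to 0.596 in the others. It had the top value for 41.1% of 12299 tested genes. Results are therefore given with and without TG 3.

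The 9 genes did not behave as a single list. *Adipoq*, *Lep*, *Plin1*, *Cidec*, *Cfd* and *Retn* had between 0.431 and 26.0 FPKM in TG 3 and were at or near 0 in the other 6 papillomas, whether CTR or TG. *Fabp4* was among the most abundant transcripts of every papilloma. *Lpl* was detected in all of them and *Pparg* was lower in TG than in CTR papillomas, with TG 3 inside the CTR range and without passing the adjusted test. *Lpl* shared the peak in TG 3 with the first 6 genes, whereas *Fabp4* and *Pparg* did not. The first 6 are called fat-cell genes below, although all 9 genes have a known use in fat cells. The 6 were grouped by their levels, which were at or near 0 outside TG 3. Their shared peak in TG 3 therefore follows from the grouping. The cells that made these transcripts were not identified.

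**Figure D1:**
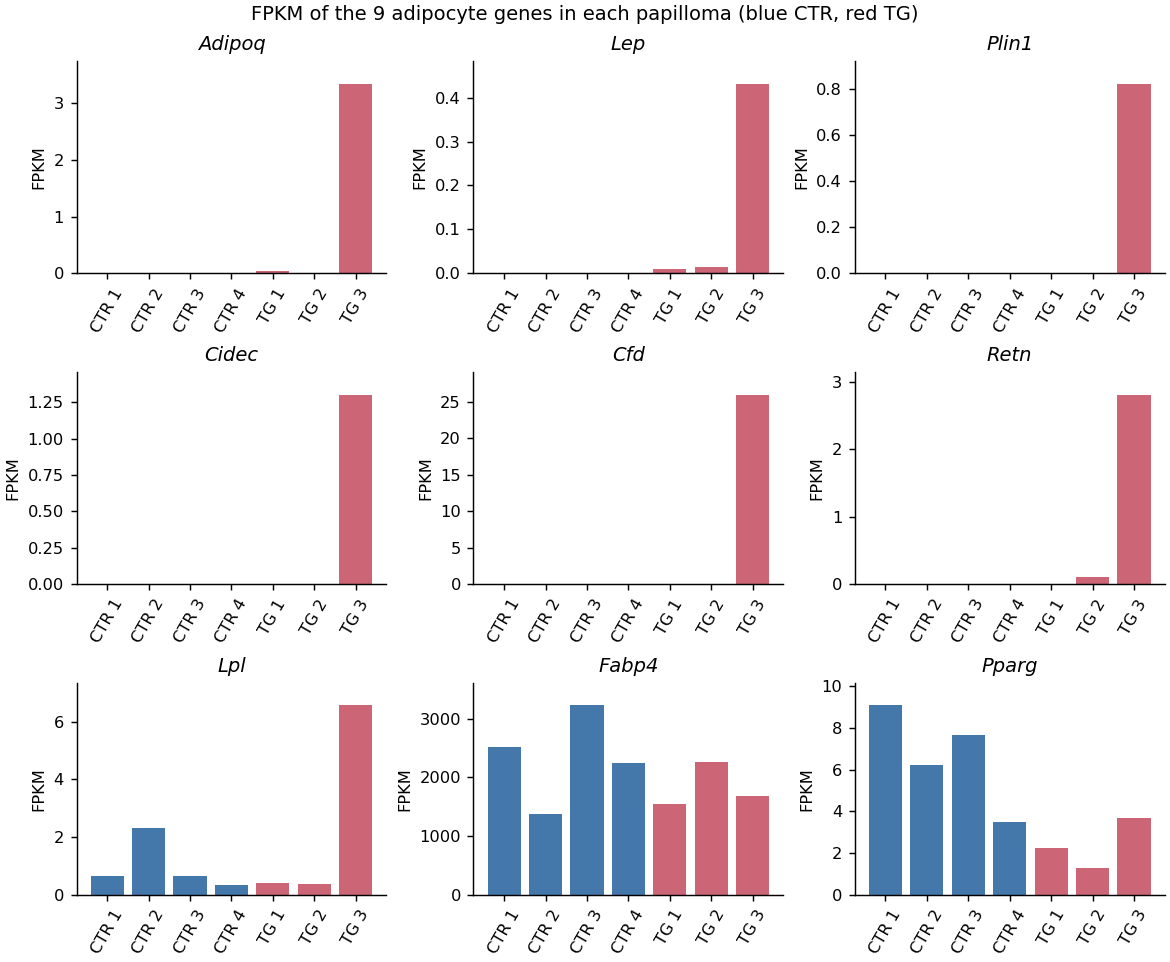
Bars show the FPKM of each of the 9 adipocyte genes in each papilloma on a linear axis that starts at 0, with 4 CTR papillomas in blue and 3 TG papillomas in red, and each panel has its own scale. *Adipoq*, *Lep*, *Plin1*, *Cidec*, *Cfd* and *Retn* have a tall bar in TG 3 alone, *Fabp4* is high throughout, and *Pparg* is tallest in CTR 1.

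The stretches of DNA just before the transcription start are shown for 3 of the adipokine genes that were listed at or near 0 in 6 papillomas, because they are the sequences at which the regulators of the fat program could be read. They are RefSeq sequences of the build GRCm38.p6, 250 bases long, on the plus strand, and end at the base before the start: *Adipoq* at chr16:23146286-23146535, *Lep* at chr6:29059971-29060220 and *Cfd* at chr10:79890603-79890852. Capitals mark matches, on either strand, to CCAAT (the CCAAT box) or TTGCGNAA (a C/EBP motif).
Adipoq: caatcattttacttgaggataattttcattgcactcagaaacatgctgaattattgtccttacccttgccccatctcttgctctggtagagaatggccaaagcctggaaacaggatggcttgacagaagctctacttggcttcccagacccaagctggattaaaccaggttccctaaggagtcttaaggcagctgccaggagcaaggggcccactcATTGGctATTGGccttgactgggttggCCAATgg
Lep: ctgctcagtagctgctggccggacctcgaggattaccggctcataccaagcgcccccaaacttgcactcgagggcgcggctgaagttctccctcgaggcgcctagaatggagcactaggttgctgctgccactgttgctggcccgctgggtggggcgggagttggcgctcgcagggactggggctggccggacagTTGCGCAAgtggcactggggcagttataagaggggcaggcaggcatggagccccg
Cfd: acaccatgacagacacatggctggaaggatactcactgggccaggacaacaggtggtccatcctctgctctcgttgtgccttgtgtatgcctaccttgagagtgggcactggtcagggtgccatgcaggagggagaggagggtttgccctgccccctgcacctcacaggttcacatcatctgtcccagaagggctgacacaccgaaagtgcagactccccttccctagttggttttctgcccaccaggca
*Adipoq* held 3 CCAAT matches, the nearest 7 to 3 bases before the start, and 33.8% of 32851 RefSeq promoter windows of this length hold at least 1. *Lep* held TTGCGCAA 55 to 48 bases before the start, a palindrome that matches TTGCGNAA on both strands, and 0.67% of the windows hold the motif. *Cfd* held neither. TATAAA, which 12.4% of the windows hold, and the PPAR direct repeat, which is AGGTCA, any 1 base and AGGTCA again and which 0.0335% hold, were absent from all 3 windows. These matches describe letters and are not evidence of binding.

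Among the secreted adipokines, *Cfd* (chromosome 10, 79890853-79892656, GRCm38), which encodes adipsin or complement factor D, a protease of the alternative complement pathway, had 26.0 FPKM in TG 3 from 337 implied reads. It had 0.0484 FPKM in CTR 3, which is 1 implied read, and was listed at 0 in CTR 1, CTR 2, CTR 4, TG 1 and TG 2. The groups overlapped, since TG 1 and TG 2 lay at the level of most CTR papillomas.

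*Adipoq* (chromosome 16, 23146536-23157968), which encodes adiponectin, an insulin-sensitizing hormone, had 3.34 FPKM in TG 3 from 75 implied reads. It had 0.0338 FPKM in TG 1, from 1 implied read, and was listed at 0 in TG 2 and all 4 CTR papillomas. For the zeros, 3 implied reads would correspond to between 0.0897 and 0.139 FPKM, depending on the papilloma, so a level below that could not have been told from 0.

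*Retn* (chromosome 8, 3655770-3659818), which encodes resistin, had 2.81 FPKM in TG 3 from 22.1 implied reads and 0.111 FPKM in TG 2 from 0.888. It was listed at 0 in the other 5 papillomas. Of its 1539 possible 40-base reads, 1.1% also occur in transcripts of other genes.

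*Lep* (chromosome 6, 29060221-29073876), which encodes leptin, the satiety hormone that reports the size of fat stores, had 0.431 FPKM in TG 3 from 27 implied reads. It had 0.0105 FPKM in TG 1 and 0.0142 FPKM in TG 2, each from 1 implied read, and was listed at 0 in all 4 CTR papillomas. All TG papillomas thus lay above all CTR papillomas, the only such case among the 9 genes, and the 2-sided exact permutation test over 35 splits gave p = 0.0286, the smallest it can give. Among 15830 symbols with at least 10 implied reads, 5.63% showed the same order of the groups, as did 4.93% of the tested genes. The separation of TG 1 and TG 2 from CTR rests on 1 implied read in each.

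The lipid droplet genes were listed at 0 in every papilloma but TG 3. *Cidec* (chromosome 6, 113424636-113435755), whose product fuses small droplets into a large one, had 1.302 FPKM there from 34 implied reads. *Plin1* (chromosome 7, 79721164-79732776), whose product coats the droplet and holds back lipolysis, had 0.824 FPKM there from 14.6 implied reads. For these genes, 3 implied reads would correspond to between 0.0768 and 0.1196 FPKM for *Cidec* and between 0.113 and 0.176 FPKM for *Plin1*.

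Across the 6 genes, 31 of the 36 values in the other 6 papillomas were listed at 0. The 5 others summed to 4.89 implied reads in 71886974, against 510 in the 10370828 implied reads of TG 3. TG 3 held between 94.6% and 100% of each gene's summed FPKM. Of all symbols with at least 10 implied reads, 0.948% had over 90% of their summed FPKM in TG 3. The 6 genes were grouped by these same values, so this share gives no test of them.

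Because of their low levels, 5 of these genes fell below the mean of 0.5 FPKM required for testing, and *Cfd* passed only through TG 3. On the scale of log2(FPKM + 0.5), which understates the change of low genes, the TG minus CTR differences were 1.88 for *Cfd*, 1.01 for both *Adipoq* and *Retn*, 0.62 for *Cidec*, 0.47 for *Plin1* and 0.32 for *Lep*. These sizes depend on the added 0.5 and on the weights of the papillomas: with 0.1 added in its place they were 0.92 for *Lep* to 2.53 for *Cfd*, and with sample quality weights 0.10 for *Plin1* and *Lep* to 0.42 for *Retn*, with *Cfd* at 0.36. The *Cfd* difference had a standard error of 1.22 and was not called (adjusted p = 0.839, limma). Without TG 3 the differences were 0.14 for *Retn*, 0.05 for *Adipoq*, 0.04 for *Lep*, 0 for *Plin1* and *Cidec*, and -0.03 for *Cfd*.

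**Figure D2:**
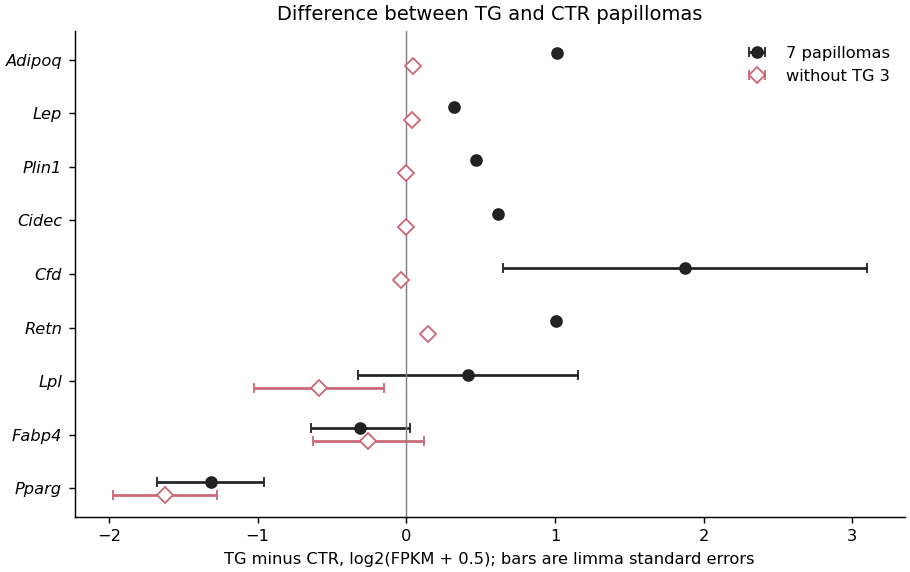
Points give the TG minus CTR difference in log2(FPKM + 0.5) for each gene, from 7 papillomas (black circles) and without TG 3 (open diamonds), and bars are limma standard errors for genes that were tested. The 6 fat-cell genes move to about 0 without TG 3, *Lpl* moves from 0.42 to -0.59, and *Pparg* stays below 0 in both.

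TG 3 also differed from the other papillomas in markers of other cell types. The summed FPKM of 8 skeletal muscle genes, such as *Acta1* and *Ckm*, was 557 in TG 3, 1.61 to 3.24 in TG 1 and TG 2, and 0.685 to 1.36 in CTR papillomas, and 7 of the 8 genes had over 90% of their FPKM in TG 3. *Ckm* was listed at 0 in CTR 2 and CTR 4. The 8 fibroblast genes summed to 817 FPKM in TG 3 and to between 92.2 and 169 FPKM elsewhere. The 8 sebaceous gland genes summed to 92.9 FPKM in TG 3 against 7.93 to 15.7 FPKM, and the 8 macrophage genes to 119 FPKM against 30.4 to 46.8 FPKM. The 8 keratinocyte genes had their lowest sum there, at 9135 FPKM, against 11115 to 21008 FPKM. Single genes of that list differed. *Krt1*, *Krt10*, *Krt14* and *Lor* were lowest in TG 3, at 133, 181, 4717 and 366 FPKM. *Krt5* had 1783 FPKM there, close to its 1777 FPKM in TG 1. *Dsp*, at 470 FPKM, lay inside the range of the others. The part of these cell types in the fat-gene levels was not tested.

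**Figure D3:**
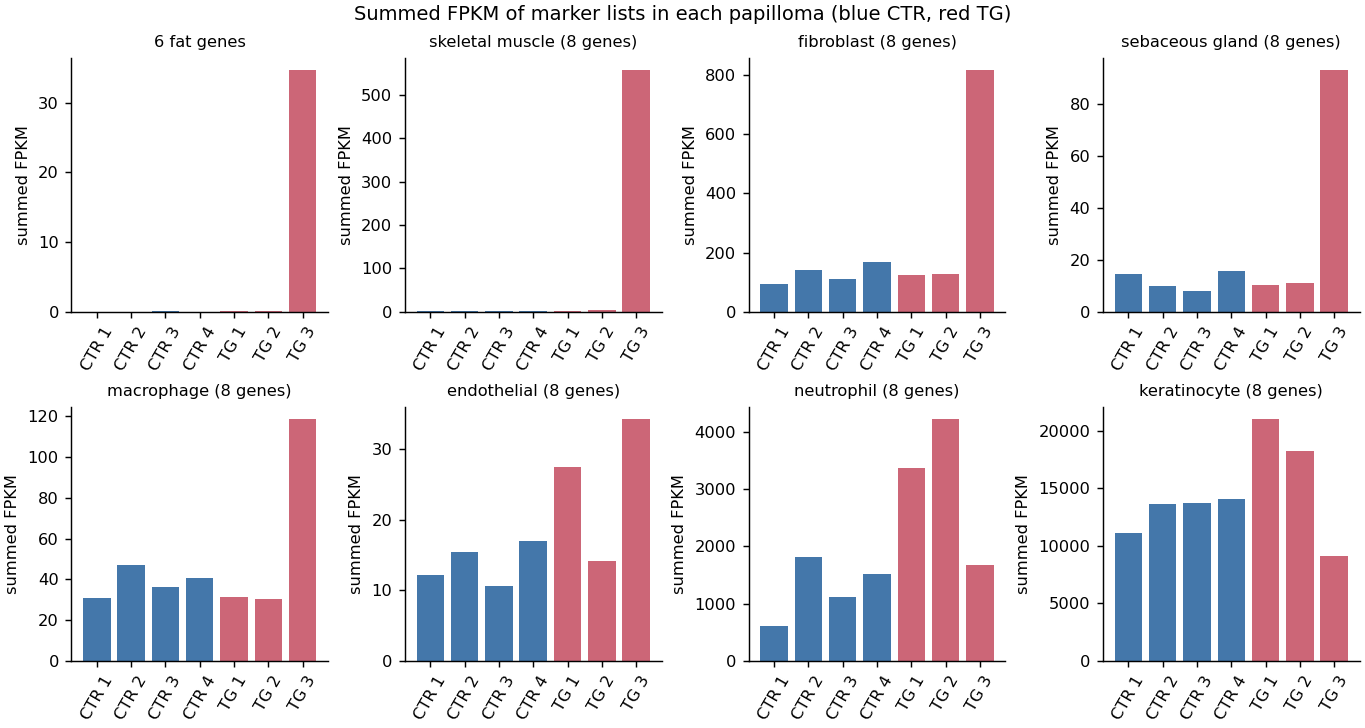
Bars show the summed FPKM of the 6 fat-cell genes and of 7 lists of 8 cell-type markers in each papilloma, CTR in blue and TG in red, each panel with its own linear axis from 0. The sum in TG 3 is highest for the fat, skeletal muscle, fibroblast, sebaceous gland, macrophage and endothelial lists and lowest for the keratinocyte list. The 6 fat-cell genes were grouped by their levels in these papillomas, so their peak in TG 3 follows from the grouping.

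The profiles most like that of *Adipoq* were sought among tested genes, by the mean absolute difference between centred log2(FPKM + 0.5) values over the 7 papillomas. The nearest were *Mstn* at 0.0346, *Gm1987* at 0.0442, *Neb* at 0.0492, *Adssl1* at 0.0570 and *Duox2* at 0.0580. The mean profile of the members with at least 0.5 FPKM was closest to *Itgbl1* at 0.152 and *Tmem38a* at 0.163. These members were *Cfd*, *Lpl*, *Fabp4* and *Pparg*, and they did not share a profile. *Cfd* and *Lpl* peaked in TG 3, whereas *Fabp4* and *Pparg* did not. The genes nearest to their mean therefore describe no profile common to them. These distances rest on 7 points each. *Adipoq* was at or near 0 outside TG 3, so its search mainly found tested genes with a similar rise in TG 3. *Mstn*, for example, had 3.69 FPKM in TG 3 and was listed at 0 elsewhere. Such a match cannot decide whether a gene follows *Adipoq* in the other papillomas.

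*Lpl* (chromosome 8, 68880555-68906932), which encodes the lipase that frees fatty acids from circulating lipoproteins, had levels of 0.658, 2.31, 0.644 and 0.322 FPKM in CTR 1 to CTR 4. Its levels in TG 1 to TG 3 were 0.407, 0.356 and 6.58 FPKM. TG 3 was 2.84 times the next highest value, and TG 1 and TG 2 fell inside the CTR range, so the groups overlapped. The log2 difference was 0.42 ± 0.74 (SE) and was not called (adjusted p = 0.958, limma; exact permutation p = 0.686). Without TG 3 it was -0.59 ± 0.44 (SE), the opposite direction.

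CTR 2 also stood out in a gene for fatty acid uptake. *Cd36*, the fatty acid translocase of fat cells, macrophages and endothelium, had 3.35 FPKM in CTR 2, at most 0.292 FPKM in the other CTR papillomas, 0.0119 and 0.0903 FPKM in TG 1 and TG 2, and 4.43 FPKM in TG 3. The macrophage gene *Lyz2* had 18.7 FPKM in CTR 2 and 54.1 FPKM in TG 3, and at most 8.43 FPKM elsewhere. The rest of the macrophage list was mixed in CTR 2. *Mrc1* and *C1qa* had their highest CTR values there, at 1.41 and 7.13 FPKM. *Cd68* had its lowest value there, at 15.4 FPKM, and *Csf1r*, *Itgam*, *Emr1* and *Cd163* were higher in another CTR papilloma. *Cd36* was chosen after its values were seen. The part of the cells that make *Cd36* and *Lyz2* in the *Lpl* level was not tested.

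*Fabp4* (chromosome 3, 10204343-10208576), the fatty acid carrier also called aP2, was the most abundant of the 9 genes. Its levels in CTR 1 to CTR 4 were 2510, 1374, 3228 and 2250 FPKM. In TG 1 to TG 3 they were 1545, 2269 and 1680 FPKM. The groups overlapped, with the lowest and the highest value both in CTR papillomas, and TG 3 was not set apart.

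By its mean level *Fabp4* ranked 16 of 23122 symbols, and between 9 and 33 within a papilloma. It took between 0.151% and 0.328% of the implied reads. The TG minus CTR difference was -0.31 ± 0.33 (SE) on the log2 scale (adjusted p = 0.919, limma), and -0.26 without TG 3. In the 6 papillomas other than TG 3, *Fabp4* was this high while *Adipoq*, *Plin1* and *Cidec* were at 0 or near it. The endothelial and macrophage lists summed to 10.7 to 34.3 FPKM and 30.4 to 119 FPKM, and the keratinocyte list to 9135 to 21008 FPKM. The part of these cell types in the *Fabp4* level was not tested.

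A close relative, *Fabp5*, encodes the epidermal fatty acid-binding protein. *Fabp5* had between 3551 and 6551 FPKM, and ranked between 4 and 8 within a papilloma. The ratio of *Fabp4* to *Fabp5* was 0.461 ± 0.163 (SD, n = 4) in CTR and 0.386 ± 0.130 (SD, n = 3) in TG papillomas, and the log2 ratios did not differ beyond the spread (exact permutation p = 0.514, 2-sided). Of 4535 40-base stretches of *Fabp4* transcripts, 0 occurred in transcripts of another gene and 0 lay within 2 mismatches of *Fabp5*.

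**Figure D4:**
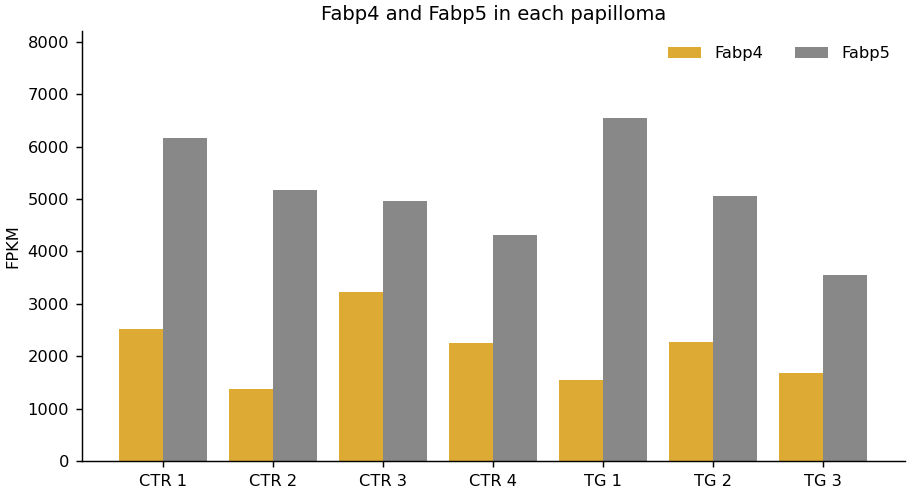
Bars show the FPKM of *Fabp4* and *Fabp5* in each of the 7 papillomas on a linear axis from 0. *Fabp4* lies between 1374 and 3228 FPKM and below *Fabp5* in every papilloma, with no separation of CTR from TG.

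*Pparg* (chromosome 6, 115361221-115490401) was measured at 9.09, 6.22, 7.67 and 3.51 FPKM in CTR 1 to CTR 4. In TG 1 to TG 3 it was measured at 2.25, 1.26 and 3.66 FPKM. TG 1 and TG 2 lay below every CTR papilloma, while TG 3 lay just above CTR 4, so a TG value was the lower in 11 of the 12 pairs. 0 of the 9 genes had every TG papilloma below every CTR papilloma, an order that 2.23% of tested genes showed. Group means were 6.62 ± 2.38 (SD, n = 4) in CTR and 2.39 ± 1.21 (SD, n = 3) in TG papillomas.

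The *Pparg* difference was -1.32 ± 0.36 (SE) on the log2 scale, with an unadjusted p of 0.00561 and an adjusted p of 0.587 (limma), and an exact permutation p of 0.0857. It was not called. At an unadjusted p under 0.05, 1.96% of the tested genes were lower in TG papillomas. Without TG 3 the difference was -1.62 ± 0.35 (SE), with an adjusted p of 0.130, and 9.03% of 11990 genes then had both TG papillomas below every CTR papilloma. An antisense gene, *Gm44079*, overlaps *Pparg*. The libraries were stranded, but whether the counting used strand is not given in the sources used here.

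*Pparg* did not follow the fat-cell genes across papillomas, since it was higher in CTR 1, CTR 2 and CTR 3, where they were at or near 0, than in TG 3. Nor did it follow the sum of the sebaceous gland list, which was highest in TG 3 and 7.93 FPKM in CTR 3. Single genes of that list differed outside TG 3. *Krt79* had 1.33 to 8.36 FPKM in CTR papillomas and 0.958 and 1.53 FPKM in TG 1 and TG 2. *Scd1* had 3.11 to 8.05 FPKM in CTR papillomas and 8.07 and 8.43 FPKM in TG 1 and TG 2. The part of sebaceous cells in the *Pparg* level was not tested. *Cebpa*, the partner of PPARγ in the fat program, had 11.5 to 23.7 FPKM in CTR papillomas and 26.3, 28.6 and 18.8 FPKM in TG 1, TG 2 and TG 3. Its difference was 0.39 ± 0.27 (SE) and was not called (adjusted p = 0.842, limma).

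Of the 9 genes 4 were tested and 0 were called at an adjusted p under 0.05, where 0% of all 12299 tested genes were called by limma. The induced *Nanog* was not called either (adjusted p = 0.400, limma). The lack of a call thus does not show that a gene is unchanged, here or in the lists below. At an unadjusted p under 0.05 (limma), 1 of the 4 tested (*Pparg*) was lower and 0 were higher, against 4.86% of all tested genes higher and 1.96% lower. Over all 9 genes the median log2 difference was 0.47, against 0.06 over all tested genes, and without TG 3 it was 0, against -0.03. The 9 include 5 genes below the level required for testing, and over the 4 tested genes alone the median was 0.05, and -0.42 without TG 3. Without TG 3, *Lpl*, *Fabp4* and *Pparg* were tested and 0 were called, where 0.0751% of 11990 tested genes were called higher and 0.0667% lower, and 4.35% were lower at an unadjusted p under 0.05. TG 3 held the highest value for 7 of the 9, with *Fabp4* and *Pparg* as the exceptions.

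The wider adipocyte pathways were read from 8 lists holding 73 different genes, of which 51 were tested and 0 called. At an unadjusted p under 0.05, 6 were higher and 1 was lower, which is 11.8% and 1.96% of the 51, against 4.86% and 1.96% of all tested genes. *Pdgfra*, *Pi16*, *Wisp2*, *Lpin1*, *Cox8b* and *Cox7a1* reached the level required for testing only through TG 3. *Pdgfra* is 1 of the 6 counted as higher, so these shares depend in part on TG 3. All TG papillomas lay above all CTR papillomas for 4.93% of tested genes and below them for 2.23%, which is the background for the genes without overlap named next. Those named are not a full count over the 51 genes. Their median log2 difference was 0.24, and 0.06 without TG 3. *Dgat1*, which catalyses the last step of triglyceride synthesis, had 5.83, 8.82, 8.45 and 8.20 FPKM in CTR 1 to 4, and 13.3, 15.9 and 13.5 FPKM in TG 1, TG 2 and TG 3. The groups did not overlap, and its difference was 0.84 ± 0.18 (SE; adjusted p = 0.538, limma), and 0.87 without TG 3.

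In uptake and triglyceride synthesis 1 of 11 tested genes, *Dgat1*, was higher at an unadjusted p under 0.05. *Dgat2*, which catalyses the same step, had 62.5 to 91.2 FPKM in the 7 papillomas and a difference of -0.05. *Gpd1*, which makes glycerol 3-phosphate, was not tested and reached 2.30 FPKM in TG 3, with no more than 0.0624 FPKM elsewhere.

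Among the lipid droplet genes 0 of 9 tested passed either threshold. *G0s2*, an inhibitor of the lipase ATGL, had the largest difference of that list, 1.36 ± 0.84 (SE), with 10.9 FPKM in TG 3 and no more than 1.16 FPKM elsewhere, and it was 0.23 without TG 3. *Plin4* and *Fitm1*, droplet proteins of fat and muscle, reached 1.10 and 0.994 FPKM in TG 3 and did not exceed 0.137 FPKM elsewhere. In contrast *Cidea*, a relative of *Cidec* that is also made in sebaceous glands, was present in every papilloma at 7.57 to 19.1 FPKM.

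Lipolysis genes were also present throughout. *Lipe*, hormone-sensitive lipase, had 5.55 to 27.4 FPKM, and *Pnpla2*, the lipase ATGL, had 4.97 to 8.32 FPKM, with a difference of -0.08. *Acsl1*, which activates fatty acids, had 14.7 to 18.2 FPKM in CTR and 20.6 to 29.4 FPKM in TG papillomas, without overlap. Its difference was 0.50 (adjusted p = 0.687, limma), and it was the only 1 of 7 tested genes in that list past the unadjusted threshold. *Pde3b*, a phosphodiesterase through which insulin restrains lipolysis, had the lowest difference, -0.57 ± 0.74 (SE), and -1.31 without TG 3, and was not called in either.

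Among adipogenic regulators, *Cebpd* had 0.867 to 1.52 FPKM in CTR and 1.80 to 2.65 FPKM in TG papillomas, without overlap (difference 0.67, adjusted p = 0.686, limma), as the only 1 of 6 tested past the unadjusted threshold. *Cebpb* had 46.3 to 70.3 FPKM and a difference of -0.04. *Adipor2*, an adiponectin receptor, had 14.0 to 21.95 FPKM in CTR and 23.6 to 36.3 FPKM in TG papillomas (difference 0.53, adjusted p = 0.720, limma), also without overlap. Without TG 3 its difference was 0.33 and no longer passed the unadjusted threshold. Its ligand *Adipoq* had 3.34 FPKM in TG 3 and none or 1 implied read elsewhere. *Adipor1* had 58.8 to 71.9 FPKM in CTR and 77.8 to 81.7 FPKM in TG papillomas, again without overlap, and a difference of 0.24 (adjusted p = 0.831, limma).

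Of 7 tested progenitor genes, *Pdgfra* and *Dpp4* were higher and *Cd34* lower at an unadjusted p under 0.05. *Pdgfra* had 0.280 to 0.369 FPKM in CTR papillomas, 3.52 FPKM in TG 3 and 0.563 and 0.613 FPKM in TG 1 and TG 2, without overlap. Its difference of 1.03 was 0.40 without TG 3, where it fell below the level required for testing. For *Dpp4* the difference was 0.96, and 1.28 without TG 3. *Cd34*, also a marker of hair follicle stem cells and endothelium, had 27.2 to 31.8 FPKM in CTR and 15.8, 11.9 and 25.3 FPKM in TG 1, TG 2 and TG 3, without overlap (difference -0.79 ± 0.24 (SE), adjusted p = 0.633, limma; -1.08 without TG 3). *Pi16*, a marker of fibroblast-like progenitors, reached 5.75 FPKM in TG 3, with no more than 0.246 FPKM elsewhere. The thermogenic gene *Ucp1* had at most 0.0743 FPKM in any papilloma, and *Cox8b*, a gene of brown fat and muscle, had 4.04 FPKM in TG 3 and was listed at 0 in the other 6. Of the 6 tested genes of other adipocyte secreted products, 0 passed either threshold, with *Ccdc80* at 8.37 FPKM in TG 3 and 0.742 to 1.95 FPKM elsewhere, and a difference that went from 0.59 to -0.19 without TG 3.

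**Figure D5:**
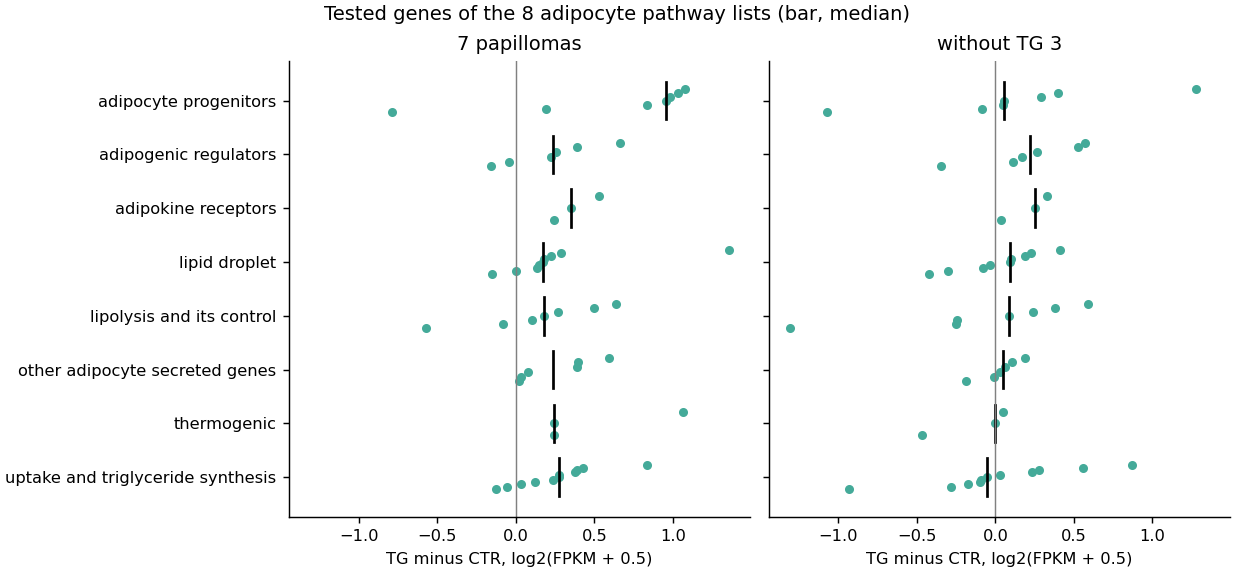
Points give the TG minus CTR difference in log2(FPKM + 0.5) of each tested gene in 8 adipocyte pathway lists, from 7 papillomas (left) and without TG 3 (right), and black bars mark list medians. The medians lie between 0.17 and 0.96 with TG 3 and between -0.05 and 0.25 without it.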

How the data were processed

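RNA-seq of 4 CTR and 3 TG papillomas was examined, with groups taken from the sample labels. Per the labels and the methods, the authors aligned 40-base single reads of stranded polyA+ libraries to GRCm38/mm10 with TopHat2 2.0.4, Bowtie 0.12.7 and SAMtools 0.1.16. The authors deposited FPKM values from Cufflinks 1.3.0, each with an interval and a status. Entries of a symbol were summed (240 symbols), and 162 symbols with a FAIL status in any papilloma were left out. Reads were implied from the interval, taken as the value plus or minus 2 times the value over the square root of the reads.

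Genes whose mean reached 0.5 FPKM were fitted on log2(FPKM + 0.5) with limma 3.58.1 (R 4.3.3), with a trend and Benjamini-Hochberg adjustment at 0.05, after testing on simulated data. Python 3.11.15 with numpy 2.4.6 and pandas 2.3.3 was used otherwise. Named were the 9 genes, paralogs, *Nanog*, and per list the 2 tested genes with the highest and the 2 with the lowest difference. Genes named beyond this rule (*Cd36*, *Gpihbp1*, *Gpd1*, *Plin4*, *Fitm1*, *Lipe*, *Ucp1*, *Dpp4*, *Wisp2*, *Lpin1*, *Mrc1*, *C1qa*, *Emr1*, *Cd163*, *Krt10*, *Krt14*) were chosen after their values were seen. The members and lists were chosen with earlier results of these data known. 17 alternatives were planned and 1, the papillomas of lower implied depth only, was added after seeing the data. Cuffdiff, which works from alignments, was not run.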

Additional observations from a re-analysis of the deposited data

Results flagged for a closer look

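Among 74 genes checked over the 4 CTR papillomas, 9 had a value that lay far from the other 3. Chance alone marks about 1 group in 20, a share that does not apply to *Cfd* and *Retnla*, whose other 3 CTR values are all 0. *Lpl* had 2.31 FPKM in CTR 2, and in the same papilloma *Cd36* had 3.35 FPKM, *Gpihbp1*, which anchors lipoprotein lipase to capillaries, had 3.51 FPKM, and *Retnla*, a resistin relative, had 0.521 FPKM, each the highest CTR value. In CTR 3 the highest values were those of *Cfd*, at 0.0484 FPKM from 1 implied read, *Retnlg*, at 0.765 FPKM, the muscle actin gene *Acta1*, at 0.409 FPKM, and *Nanog*, at 12.7 FPKM. *Klf15*, a regulator of fat-cell differentiation, had its lowest CTR value in CTR 4, at 0.290 FPKM.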

How the results depend on the processing

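No gene among the 12299 tested was called in either direction by limma, against 598 higher and 241 lower at an unadjusted p under 0.05. Sample quality weights called 49 higher and 36 lower, and the papillomas of lower implied depth only called 1 higher. Leaving out a papilloma called 0 to 9 higher and 0 to 8 lower, with 9 and 8 without TG 3. Sample quality weights turned the *Lpl* difference to -0.13. With a pseudocount of 0.1, *Adipoq* was 1.84, *Retn* 1.98, *Cidec* 1.27 and *Plin1* 1.07, and with quality weights they were 0.22, 0.42, 0.13 and 0.10. Leaving out a papilloma gave 0.05 to 1.52 for *Adipoq*, 0.04 to 0.47 for *Lep*, 0 to 0.70 for *Plin1*, 0 to 0.92 for *Cidec*, -0.033 to 2.83 for *Cfd*, 0.14 to 1.51 for *Retn*, -0.59 to 0.94 for *Lpl*, -0.54 to -0.13 for *Fabp4* and -1.62 to -1.003 for *Pparg*. The lowest values were without TG 3 except for *Fabp4*, and the median of the 9 genes was then 0. *Pparg* kept its direction and an unadjusted p under 0.05 in 18 of 18 alternatives, with adjusted p from 0.0578 to 0.999.

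Whether the replicate numbers in the labels pair the papillomas is not stated in the sources used here. Same-numbered CTR and TG papillomas deviated with correlations of -0.19, 0.04 and -0.15 across genes. Differently numbered papillomas had correlations between -0.22 and 0.31. So few pairs cannot decide the question. With the replicate block, 0 genes were called (505 higher and 170 lower unadjusted), and the *Pparg* difference was -1.57 (adjusted p = 0.408, limma).

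The fat-cell genes rest on a single papilloma, with 14.6 to 337 implied reads a gene, and their differences carry the spread of that papilloma against the others.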

Other observations

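The relatives of *Retn* were also highest in TG 3. *Retnlg*, a resistin-like gene of myeloid cells, had 14.0 FPKM there and at most 0.765 FPKM elsewhere, and *Retnla* had 5.95 FPKM there and 0.521 FPKM in CTR 2, and was listed at 0 in the other 5 papillomas. *Retnlb* was listed at 0 in all 7.

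The tested genes with profiles most like *Pparg* over the 7 papillomas, chosen after values were seen, were *Tst*, *Gstm1*, *Ccbl1*, *Gstm4* and *Ptgr1*, with TG minus CTR log2 differences of -1.09, -1.37, -0.97, -0.79 and -1.22. Those most like *Fabp4* were *Ppfia3*, *Smpd1*, *Map3k6*, *Fancf* and *Ano9*, with differences between -0.30 and -0.12. Differences in the direction of *Pparg* or *Fabp4* follow from this choice and are no further evidence.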
